A study of Mus musculus with 6 samples.

Results

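The retinoic acid pathway was read through 9 genes in cells sorted as neural crest cells (NCCs). The genes were the receptors Rara, Rarb and Rarg, the synthesizing enzymes Aldh1a1, Aldh1a2 and Aldh1a3, the binding proteins Crabp1 and Crabp2, and the degrading enzyme Cyp26b1. They are the rows of the count table whose Ensembl identifier carries one of these names in GENCODE M21, 9 of 46983 genes in all. RNAseq had been performed on cells sorted as NCCs by FACS for GFP from embryos at E11.25, with 3 control and 3 BAF155/170-deficient libraries, each group from 3 embryos. Every embryo carried Wnt1 Cre/+ and the reporter Rosa26 mTmG/+, which turns on GFP where Cre has acted. The controls were flox/+ for BAF155 and for BAF170, and the deficient embryos flox/flox for each, so cells with 1 intact copy of each gene were compared with cells meant to have none. BAF155 and BAF170 are scaffold subunits of the BAF chromatin remodeling complex, encoded by Smarcc1 and Smarcc2. The driver Wnt1 Cre is active in premigratory NCCs and also in the dorsal neural tube, so GFP does not mark NCCs alone.

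Retinoic acid is made from vitamin A. Retinol is taken up and oxidized to retinal, retinaldehyde dehydrogenases of the Aldh1a family oxidize retinal to retinoic acid, cellular binding proteins hold and deliver the acid, and Cyp26 hydroxylases clear it. In the nucleus the acid binds retinoic acid receptors (RARs), which sit on DNA as heterodimers with retinoid X receptors (RXRs) and switch from corepressors to coactivators when bound. In the embryo the acid comes largely from mesoderm, acts on NCCs as an outside signal, and causes craniofacial and outflow tract defects when there is too much or too little of it.

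The libraries held 8191219 to 11661941 counts on genes in the controls and 12633319 to 19808620 in the deficient group. Levels are given as CPM, counts scaled to TMM-normalized library sizes. A gene was called when its p, adjusted over all tested genes by the Benjamini-Hochberg method (the adjusted p of the text), was at most 0.1 by edgeR's quasi-likelihood test, its absolute log2 fold change (deficient minus control) at least 0.58 and its mean at least 2 CPM. Smarcc1 was called lower (log2 fold change −0.71, standard error 0.16, edgeR adjusted p = 0.0676) and Smarcc2 was not (−0.11, standard error 0.058, edgeR adjusted p = 0.251), and with libraries scaled to embryonic markers both values were positive (0.22 and 0.78). Counts per gene do not separate the floxed exons from the rest. Smarcc1 was no longer called without control replicate 1 (−0.74, edgeR adjusted p = 0.222) or 2 (−0.53, edgeR adjusted p = 0.0938), and likewise without deficient replicate 2 (−0.70, edgeR adjusted p = 0.132) or 3 (−0.65, edgeR adjusted p = 0.225).

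Summed markers of some cell types differed between the groups. All 12 macrophage markers were present in every library, and their summed level was 12120 to 14060 CPM in the control and 14190 to 15480 CPM in the deficient libraries. In contrast, 50 markers of embryonic cell types (mesenchymal, glial, sensory and autonomic derivatives of the crest, and neural tube) summed to only 248, 318 and 175 CPM in control libraries 1 to 3 and to 173, 132 and 115 CPM in the deficient libraries 1 to 3, and 44 of the 50 were present in every library. For neither sum did the groups overlap, but the margins were narrow, at 174.6 CPM in the lowest control and 172.8 CPM in the highest deficient library for the embryonic sum. Of the embryonic lists, only the mesenchymal crest sums were apart, at 68.1 to 116.4 CPM in the control and 33.2 to 56.0 CPM in the deficient libraries. The glial, sensory, autonomic and neural tube sums each overlapped between the groups. In every library the summed macrophage markers lay far above the summed embryonic markers, so the level of a gene here cannot be assigned to NCCs. The 8 glial and early crest markers among them, Sox10, Foxd3 and Tfap2a included, were present in every library, at a sum of 51.1 to 85.1 CPM in the controls and 43.4 to 53.2 CPM in the deficient group. Endothelial markers summed to 174 to 195 CPM in the control and 199 to 212 CPM in the deficient libraries. Most of that was Kdr (means of 173.1 and 194.5 CPM). Pecam1, the next, had 5.49 and 5.69 CPM, and the groups overlapped for every endothelial marker but Kdr. Erythroid markers summed to 20.8 to 60.1 and 16.6 to 21.3 CPM, neutrophil markers to 17.5 to 22.7 and 23.9 to 27.5 CPM, and epithelial markers to at most 2.94 and 1.10 CPM. Most of the neutrophil sum was S100a8 (means of 9.03 and 13.0 CPM) and S100a9 (5.84 and 8.46 CPM), whereas Ngp (3.97 and 3.29 CPM) and Ltf (0.645 and 0.231 CPM) had lower means in the deficient group. No marker of any list was at 0 in all libraries. In bulk RNA, fewer cells of a type and less RNA of a gene per cell cannot be told apart, and the part of cell makeup in the results on the 9 genes was not tested. Control replicate 2, with the largest embryonic sum of the controls, held the highest control value of all 9 genes, and control replicate 3, with the smallest, held the lowest control value of 8 of them, Cyp26b1 being the exception. In the deficient group the match was looser: replicate 1, with the largest sum, was highest for 6 of the 9 genes, and replicate 3, with the smallest, lowest for 5. The share of all tested genes with these orders was not taken. The part of a library's counts in its 10 most abundant genes had the same order within each group as the embryonic sum. It was 29.9%, 35.0% and 21.8% in control replicates 1 to 3 and 23.4%, 22.8% and 16.2% in deficient replicates 1 to 3. What lies behind these orders was not tested.

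Of the 9 genes, 7 passed the filter on low counts and 2, Aldh1a1 and Aldh1a3, did not. Crabp1, Rarb and Cyp26b1, that is 3 of the 7, were called lower in the deficient group and no gene was called higher. Over all 13961 tested genes, 4.88% were called lower, 0.0573% higher and 4.94% in either direction. A log2 fold change of −0.58 or below was measured in 4 of the 7, which adds Crabp2, beside 16.3% of all tested genes. All deficient libraries lay below all controls in 3 of the 7, beside 16.4% of tested genes (31.4% had groups that did not overlap, in either direction). The median log2 fold change was −1.14 over the 7 genes, 5 of which lay below 0, and −0.02 over all tested genes, of which 52.3% lay below 0. The calls were spread over receptors, binding proteins and degradation, and the only synthesizing enzyme with enough counts to test, Aldh1a2, was not called. How many of the 7 were called depended on single libraries: 0 without control replicate 1 or without deficient replicate 3, 1 without control replicate 2 or without deficient replicate 2, and 4 without control replicate 3 or without deficient replicate 1. In the 2 fits with 0 calls, 4 and 3 of the 7 had an unadjusted edgeR p under 0.05, beside 2547 of 14318 and 2200 of 14280 tested genes. With all 6 libraries, DESeq2 called 4, limma-voom 3 and limma-voom with sample weights 4.

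**Figure D1:**
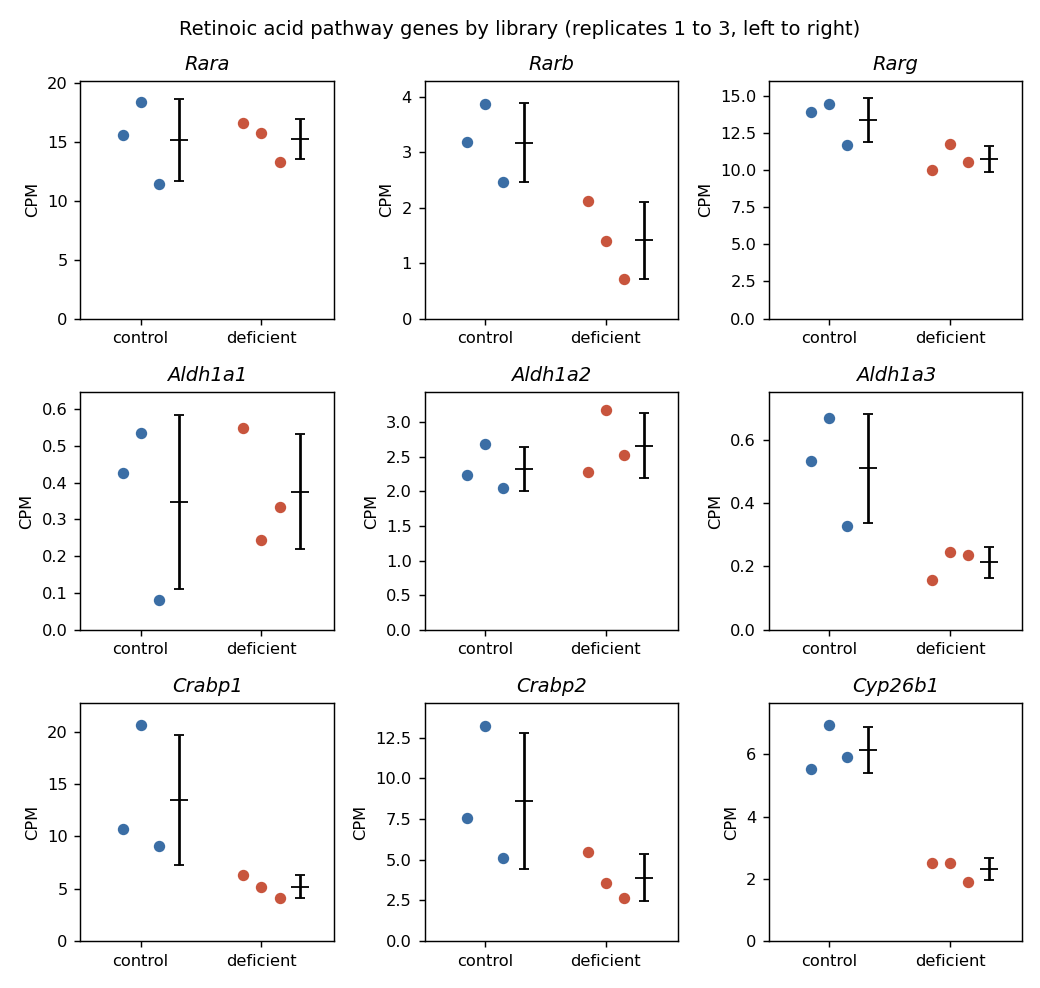
Level of each of the 9 genes in CPM (linear axis from 0, its own range in each panel) in the 3 control (blue) and 3 BAF155/170-deficient (red) libraries, with the mean and SD of each group in black. The 2 groups do not overlap for Rarb, Crabp1, Cyp26b1 and Aldh1a3, the last of which had 2 to 5 counts a library and was not tested.

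Crabp1 encodes the first cellular retinoic acid binding protein, a cytoplasmic carrier long used to mark hindbrain and migrating NCCs. The gene (ENSMUSG00000032291.8, chromosome 9 of GRCm38 from 54764748 to 54773110, plus strand) had 10.7, 20.6 and 9.03 CPM in the control libraries 1 to 3, from 101, 154 and 110 counts, and 6.27, 5.19 and 4.08 CPM in the deficient libraries 1 to 3, from 80, 85 and 86 counts. The highest deficient library lay below the lowest control, and control replicate 2 stood well above the other controls. Crabp1 fell 2.58-fold, a log2 fold change of −1.37 (95% confidence interval −2.11 to −0.63, edgeR adjusted p = 0.0759). It was no longer called without control replicate 1 (−1.50, edgeR adjusted p = 0.215) or 2 (−0.94, edgeR adjusted p = 0.130), and likewise without deficient replicate 2 (−1.37, edgeR adjusted p = 0.153) or 3 (−1.21, edgeR adjusted p = 0.251). Over 15 alternatives its adjusted p ran from 1.895e-09 to 0.381 by edgeR, DESeq2 or limma.

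Crabp2 encodes the second binding protein, which carries retinoic acid into the nucleus and hands it to the receptors. The gene (ENSMUSG00000004885.5, chromosome 3 from 87948666 to 87953376, plus strand) had 7.55, 13.2 and 5.09 CPM in the controls, from 71, 99 and 62 counts. Deficient replicates 1 to 3 had 5.48, 3.54 and 2.66 CPM, from 70, 58 and 56 counts. Deficient replicate 1 lay above control replicate 3, so the groups overlapped. Its log2 fold change of −1.14 (95% confidence interval −2.03 to −0.26) was close in size to that of the called genes, but it missed the threshold (edgeR adjusted p = 0.113). Crabp2 was called by DESeq2 (−1.13, DESeq2 adjusted p = 0.0276), without control replicate 3 (−1.43, edgeR adjusted p = 0.0247) and without deficient replicate 1 (−1.46, edgeR adjusted p = 0.0738), and without control replicate 2 its log2 fold change was −0.71. Its adjusted p over 15 alternatives ran from 0.000202 to 0.693 by edgeR, DESeq2 or limma.

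The share of Crabp1 in the reads per kilobase of both binding proteins does not depend on how the libraries are scaled. It was 70.1%, 71.9% and 74.5% in control replicates 1 to 3 and 65.3%, 70.7% and 71.7% in deficient replicates 1 to 3. The groups overlapped, at 72.2% ± 2.22 and 69.2% ± 3.43 (SD, n = 3 each, exact permutation test, two-sided p = 0.4, Benjamini-Hochberg adjusted p = 0.4 over 4 share comparisons). A difference in the balance of the pair was not detectable here.

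Cyp26b1 encodes a retinoic acid hydroxylase that inactivates the acid and keeps parts of the head, limb and hindbrain free of it. The gene (ENSMUSG00000063415.12, chromosome 6 from 84571414 to 84593908, minus strand) had 5.53, 6.96 and 5.91 CPM in the control libraries 1 to 3, from 52, 52 and 72 counts, and 2.51, 2.51 and 1.90 CPM in the deficient libraries 1 to 3, from 32, 41 and 40 counts. Each group was tight, at 6.13 ± 0.739 and 2.30 ± 0.350 CPM (SD, n = 3 each), and the groups lay far apart. Cyp26b1 fell 2.67-fold, a log2 fold change of −1.41 (95% confidence interval −1.94 to −0.89, edgeR adjusted p = 0.0439), and it was the one gene of the 7 with an adjusted p of at most 0.05. It was no longer called without control replicate 1 (−1.48, edgeR adjusted p = 0.214) or deficient replicate 3 (−1.28, edgeR adjusted p = 0.114), although the fold change hardly moved. Over 15 alternatives its adjusted p ran from 6.353e-05 to 0.262 by edgeR, DESeq2 or limma.

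The sister hydroxylases were low. Cyp26a1 had 17 counts in all controls and 26 in all deficient libraries and was not tested. Cyp26c1 was tested but neither called nor past the adjusted p alone.

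Rarb encodes a receptor whose gene is itself a classical target of retinoic acid, so that its transcript is often read as a sign of signaling. Its promoter is shown for that reason. In the RefSeq promoter of Rarb (250 bases before to 50 bases after the start, GRCm38.p6, chr14:16575427-16575726, minus strand), a direct repeat of the receptor half-site spaced by 5 bases (DR5) was found 53 to 37 bases before the start. The window of 30 bases around it (chr14:16575506-16575535) is given on the strand of the gene, 5′ to 3′, with the repeat and its spacer in capitals.
Rarb: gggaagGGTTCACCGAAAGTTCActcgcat
The search took any direct repeat, on both strands, of the half-site AGGTCA, its variant AGTTCA, the variant GGGTCA or the variant GGTTCA, also in mixed pairs. A DR5 of these half-sites occurred in 0.0974% of 32851 RefSeq promoters of the same length, a DR1 (spaced by 1 base) in 0.222% and a DR2 (spaced by 2) in 0.268%. Of the 9 genes, 7 had a promoter in the table (12 promoters), and no match was found in those of the other 6 genes. A match of letters does not show that a receptor was bound there in these cells.

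The gene Rarb (ENSMUSG00000017491.8, chromosome 14 from 16430839 to 16819156, minus strand) was scarce, with 30, 29 and 30 counts in control replicates 1 to 3 and 27, 23 and 15 counts in the deeper deficient replicates 1 to 3. These gave 3.19, 3.88 and 2.46 CPM in the control and 2.12, 1.41 and 0.71 CPM in the deficient libraries. The groups did not overlap, and deficient replicate 1 was the nearest to the controls. Rarb fell 2.29-fold, a log2 fold change of −1.20 (95% confidence interval −2.07 to −0.32), with an adjusted p just inside the threshold (edgeR adjusted p = 0.0997). It was no longer called without control replicate 1 (−1.18, edgeR adjusted p = 0.266) or 2 (−1.04, edgeR adjusted p = 0.289), and likewise without deficient replicate 2 (−1.22, edgeR adjusted p = 0.175) or 3 (−0.85, edgeR adjusted p = 0.308), and its adjusted p over 15 alternatives ran from 0.0237 to 0.538 by edgeR, DESeq2 or limma. In GENCODE M21 the exons of Rarb share 1793 bases with exons of Top2b, a topoisomerase gene on the opposite strand, and 227 bases with the antisense transcript Gm48162. Top2b was far more abundant, at 55.1, 68.4 and 56.3 CPM in the control and 41.0, 34.1 and 33.0 CPM in the deficient libraries, and was called lower too (log2 fold change −0.73, standard error 0.11, edgeR adjusted p = 0.0393). The libraries were strand-specific, but the strand setting of the counting is not given in the sources used here, so the part of Top2b reads in the Rarb counts was not tested.

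Rara encodes the most widely expressed of the receptors. The gene (ENSMUSG00000037992.16, chromosome 11 from 98927818 to 98974942, plus strand) had 15.6, 18.5 and 11.5 CPM in the control libraries 1 to 3 and 16.6, 15.8 and 13.3 CPM in the deficient libraries 1 to 3, from 138 to 281 counts a library. All deficient values lay within the range of the controls. No difference was detected, with a log2 fold change of 0.02 (95% confidence interval −0.35 to 0.39, edgeR adjusted p = 0.962), whose sign changed with the library left out (−0.16 to 0.17).

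Rarg, the receptor of mesenchyme and cartilage precursors (ENSMUSG00000001288.14, chromosome 15 from 102234938 to 102257517, minus strand), had 13.9, 14.4 and 11.7 CPM in the control and 10.02, 11.7 and 10.5 CPM in the deficient libraries, from 108 to 222 counts. Deficient replicate 2 and control replicate 3 met, so the groups overlapped slightly. The log2 fold change of −0.30 (95% confidence interval −0.61 to 0.0026) did not pass (edgeR adjusted p = 0.186), and it was 0.62 with scaling to embryonic markers.

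Within a library, the makeup of the receptor transcripts can be compared without regard to scaling. Rarb made up 8.13%, 8.82% and 8.01% of the receptor reads per kilobase in control replicates 1 to 3 and 6.12%, 4.02% and 2.39% in deficient replicates 1 to 3. The groups did not overlap, at 8.32% ± 0.435 and 4.18% ± 1.87 (SD, n = 3 each, exact permutation test, two-sided p = 0.1, the smallest that 3 against 3 libraries allow, Benjamini-Hochberg adjusted p = 0.2 over 4 shares). The share of Rara was 48.0%, 50.6% and 45.1% in the controls and 58.0%, 54.5% and 54.0% in the deficient libraries, again without overlap (47.9% ± 2.75 and 55.5% ± 2.19, SD, n = 3 each, exact permutation test, two-sided p = 0.1, adjusted 0.2). Rarg held 43.8% ± 3.15 in the controls and 40.3% ± 4.01 in the deficient libraries, with overlap (SD, n = 3 each, exact permutation test, two-sided p = 0.4, adjusted 0.4). No share could pass a threshold of 0.05 with these numbers of libraries.

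**Figure D2:**
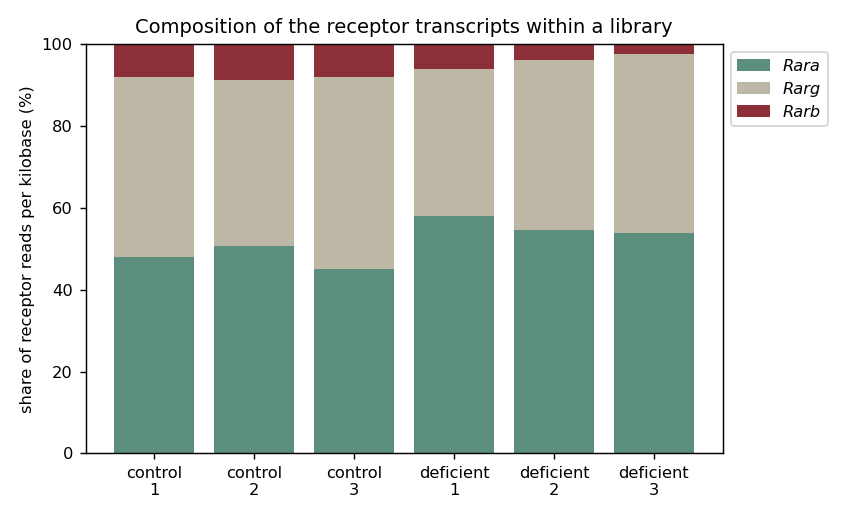
Share of each receptor gene, in percent, in the summed reads per kilobase of Rara, Rarg and Rarb, with one stacked bar for each library. The Rarb part at the top of the bars is 8.01% to 8.82% in the 3 control libraries and 2.39% to 6.12% in the 3 deficient libraries.

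The synthesizing enzymes were scarce in both groups. Aldh1a2 encodes the main enzyme of retinoic acid synthesis in the early embryo, known for its place in mesoderm rather than in NCCs. The gene (ENSMUSG00000013584.5, chromosome 9 from 71215789 to 71296243, plus strand) had 2.23, 2.68 and 2.05 CPM in the control libraries 1 to 3, from 21, 20 and 25 counts, and 2.27, 3.18 and 2.52 CPM in the deficient libraries 1 to 3, from 29, 52 and 53 counts. The groups overlapped, and no difference was detected (log2 fold change 0.21, 95% confidence interval −0.41 to 0.83, edgeR adjusted p = 0.672). The interval leaves room for a rise or a modest fall.

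Aldh1a1 (ENSMUSG00000053279.6, chromosome 19 from 20492715 to 20643465, plus strand), the enzyme of the dorsal eye, had 4, 4 and 1 counts in the controls and 7, 4 and 7 in the deficient libraries. Aldh1a3 (ENSMUSG00000015134.14, chromosome 7 from 66390890 to 66427517, minus strand), the enzyme of the ventral eye and nasal region, had 5, 5 and 4 counts in the controls and 2, 4 and 5 in the deficient libraries. On the CPM scale Aldh1a3 was 0.53, 0.67 and 0.33 in the controls and 0.16, 0.24 and 0.24 in the deficient libraries, and Aldh1a1 overlapped between the groups. With so few counts, neither gene was tested.

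Levels of different genes were compared as CPM per kilobase of exon. In the controls Crabp1 was the most abundant at 16.8 ± 7.79 (SD, n = 3), followed by Crabp2 (6.53 ± 3.16), Rara (3.48 ± 0.803), Rarg (3.13 ± 0.349), Cyp26b1 (1.15 ± 0.138), Aldh1a2 (1.02 ± 0.142), Rarb (0.604 ± 0.135), Aldh1a3 (0.110 ± 0.0371) and Aldh1a1 (0.0704 ± 0.0479). Among neighbours in this order, the libraries of Crabp2 and Rara, Rara and Rarg, Cyp26b1 and Aldh1a2, and Aldh1a3 and Aldh1a1 overlapped, and the other neighbours did not. Crabp1 was thus 4.82 times Rara per kilobase in the controls, although per gene, without regard to length, it was 0.886 times Rara. In the deficient libraries Crabp1 still came first, at 6.46 ± 1.36 (SD, n = 3), while Rara (3.50 ± 0.390) stood above Crabp2 (2.95 ± 1.09) and Aldh1a2 (1.17 ± 0.207) above Cyp26b1 (0.430 ± 0.0654). Rara and Crabp2 overlapped there, whereas every deficient library had more Aldh1a2 per kilobase than Cyp26b1. That change of order was not tested.

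The wider pathway was read from 53 other genes, of which 33 were tested. Of these, 3 were called lower and none higher, beside 4.88% and 0.0573% of all tested genes. By an adjusted p up to 0.1 alone, 6 were lower and 2 higher, beside 7.75% and 4.18% of all tested genes. Their median log2 fold change was −0.10, with 22 below 0 and 11 above. The count of calls was 6 by DESeq2 and 5 by limma-voom, and it reached 9 and 5 when control replicate 3 or deficient replicate 1 was left out. It was 0 without control replicate 1 or 2 or without deficient replicate 2 or 3. In these 4 fits 12 of 33, 10 of 33, 16 of 34 and 9 of 34 tested pathway genes had an unadjusted edgeR p under 0.05. Over all genes the counts were 2547 of 14318, 2361 of 14305, 3213 of 14319 and 2200 of 14280.

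Retinol uptake and storage was represented by 6 genes, of which 2 were tested, Stra6 among them. Stra6, the membrane receptor for the retinol carrier of the blood, had 1.81, 4.82 and 1.40 CPM in the control and 0.47, 0.73 and 0.62 CPM in the deficient libraries. Control replicate 2 was more than double the other controls, and the groups did not overlap. Stra6 had an adjusted p of at most 0.1 (log2 fold change −2.06, standard error 0.51, edgeR adjusted p = 0.0701), but with a mean of 1.64 CPM it was under the level set for a call. With single libraries left out, its edgeR adjusted p ran from 0.0167 to 0.247, highest without control replicate 2, where the log2 fold change was −1.36. The esterifying enzyme gene Lrat had 1 count in all controls and 0 in all deficient libraries, and was not tested.

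Oxidation and reduction of retinol and retinal was covered by 15 genes, with 9 tested, none called, 7 above 0 and a median log2 fold change of 0.12. Dhrs9, the most abundant per kilobase, had 89.3, 81.7 and 97.9 CPM in the control and 98.3, 102 and 109 CPM in the deficient libraries, without overlap (log2 fold change 0.20, standard error 0.075, edgeR adjusted p = 0.122). Rdh14 had the largest log2 fold change of the list, 0.34 (standard error 0.16, edgeR adjusted p = 0.208), and was not called. Among carriers, Fabp5, which delivers fatty acids and retinoic acid to other nuclear receptors and is also abundant in macrophages, rose from 455 ± 16.6 to 539 ± 56.7 CPM (SD, n = 3 each), a log2 fold change of 0.25 under the threshold for a call (standard error 0.078, edgeR adjusted p = 0.0933). With single libraries left out that adjusted p (edgeR) ran from 0.0615 to 0.326, highest without deficient replicate 3.

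The RXR partners, of which Rxra and Rxrb were tested, were not called. Rxrb had 21.8, 23.7 and 23.1 CPM in the control and 16.7, 23.0 and 17.7 CPM in the deficient libraries, with overlap, and its log2 fold change was −0.25 (standard error 0.13, edgeR adjusted p = 0.214) and 0.65 when the libraries were scaled to embryonic markers. All 13 coregulators and competing receptors were tested, and 11 lay below 0, with a median of −0.17. The corepressor Nrip1, which binds liganded receptors, was called lower. It had 16.8, 14.4 and 13.3 CPM in the control and 10.1, 9.96 and 9.35 CPM in the deficient libraries (log2 fold change −0.60, standard error 0.14, edgeR adjusted p = 0.0599). Nrip1 kept no call without control replicate 1 (−0.50, edgeR adjusted p = 0.229) or 2 (−0.61, edgeR adjusted p = 0.142), and likewise without deficient replicate 2 (−0.61, edgeR adjusted p = 0.1004) or 3 (−0.56, edgeR adjusted p = 0.195), and its log2 fold change was 0.30 with scaling to embryonic markers. With all 6 libraries its call was also lost after a correction for exon length (−0.38, edgeR adjusted p = 0.1002), with library totals (−0.54) and with no filter on low counts (−0.55), the last pair by the fold threshold. The coactivator Ncoa3 rose by less than the threshold (log2 fold change 0.27, standard error 0.079, edgeR adjusted p = 0.0830), with an edgeR adjusted p of 0.0146 to 0.257 when single libraries were left out. Another coactivator, Crebbp, went the other way, from 52.2 ± 8.71 to 35.9 ± 4.74 CPM (SD, n = 3 each), without overlap. Its fall was also under the fold threshold (log2 fold change −0.54, standard error 0.14, edgeR adjusted p = 0.0780). Nr2f1, an orphan receptor that competes for the same repeats and is itself induced by retinoic acid, had 20.5, 28.2 and 16.5 CPM in the control and 11.9, 11.6 and 5.13 CPM in the deficient libraries, without overlap, and did not pass (log2 fold change −1.20, standard error 0.37, edgeR adjusted p = 0.115). DESeq2 and limma-voom called Nr2f1 lower.

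Of 13 genes known as responders to retinoic acid, 5 had enough counts to test, and 4 of these lay below 0. The homeobox genes Meis1 and Meis2, which are induced by the acid in limb and hindbrain, were called lower. Meis1 had 16.8, 18.1 and 10.6 CPM in the control and 9.24, 6.48 and 5.56 CPM in the deficient libraries (log2 fold change −1.10, standard error 0.24, edgeR adjusted p = 0.0653). Meis2 had 24.5, 25.4 and 19.1 CPM in the control and 13.8, 14.1 and 6.88 CPM in the deficient libraries (log2 fold change −1.001, standard error 0.28, edgeR adjusted p = 0.0949). Neither gene overlapped between the groups. Either call was lost without control replicate 1 or 2 or without deficient replicate 2 or 3, with log2 fold changes over all 6 such fits of −1.32 to −0.94 for Meis1 and −1.18 to −0.72 for Meis2. With scaling to embryonic markers neither was called, at −0.18 for Meis1 (edgeR adjusted p = 0.697) and −0.12 for Meis2 (edgeR adjusted p = 0.799), and Meis2 also lost its call with a filter at a mean of 2 CPM (−1.03, edgeR adjusted p = 0.105). Tgm2, a transglutaminase that retinoic acid induces in macrophages and other cells, went the other way without a call, with 423, 386 and 454 CPM in the control and 464, 488 and 495 CPM in the deficient libraries (log2 fold change 0.20, standard error 0.069, edgeR adjusted p = 0.108).

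**Figure D3:**
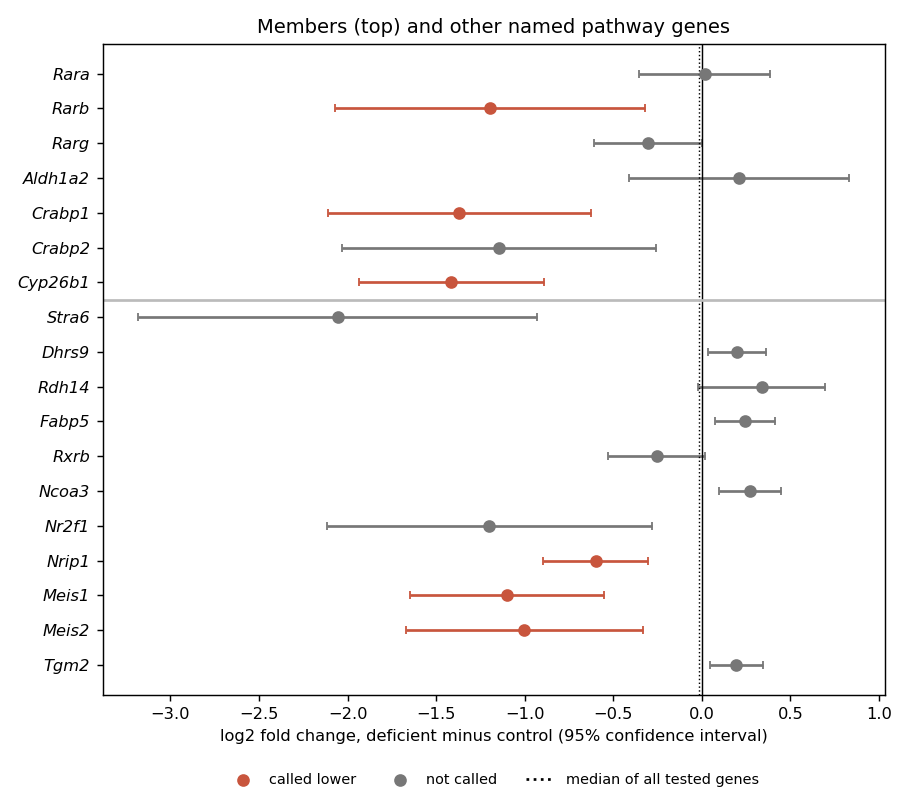
Log2 fold change, deficient minus control, with its 95% confidence interval, for the 7 tested genes of the 9 (above the grey line) and other named pathway genes (below it). Cyp26c1, Rxra and Crebbp are not drawn. Red marks genes called lower, grey genes not called, and the dotted line the median over every tested gene (−0.02); with scaling to embryonic markers Rarg, Rxrb and Nrip1 turn to the other side of 0.

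The tested genes whose profile over the 6 libraries was most like that of each called gene were found by the root mean square distance between log2 CPM centred on each gene's mean. For Rarb they were Ttc23 (distance 0.0717), Aff3 (0.0745) and 2810429I04Rik (0.0834). Nova2 (0.0538), Hdac11 (0.0794) and Bicc1 (0.0803) were nearest to Crabp1, and Ppp4r4 (0.0935), Gm38042 (0.0991) and Shd (0.125) to Cyp26b1. All of these had log2 fold changes between −1.62 and −1.13, a likeness that the choice by profile fixes in advance. Several were scarce, such as Ppp4r4 (mean of 0.779 CPM), 2810429I04Rik (1.09 CPM) and Hdac11 (1.28 CPM).

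Since the embryonic markers were also lower in the deficient libraries (39 tested, 11 called lower, median log2 fold change −0.98), the 9 genes were set against them. With each library scaled to the median level of 26 embryonic markers, the median over every tested gene moved to a log2 fold change of 0.87, and 0.365% of genes were called lower and 55.9% higher. The log2 fold changes of Crabp1 (−0.39, edgeR adjusted p = 0.381), Cyp26b1 (−0.52, edgeR adjusted p = 0.262) and Rarb (−0.32, edgeR adjusted p = 0.538) stayed negative without a call, as did that of Crabp2 (−0.18). Rara (0.95, edgeR adjusted p = 0.0656) and Aldh1a2 (1.15, edgeR adjusted p = 0.0656) were called higher, near that median, and Rarg turned positive (0.62) without a call. By construction, this scaling also takes away whatever change the markers and the 9 genes had in common.

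Raw counts of the 9 genes were also taken per 1000 counts of the 50 embryonic markers, a measure chosen after the data had been seen. Crabp1 had 43.4, 64.9 and 51.7 in control replicates 1 to 3 and 36.3, 39.4 and 35.4 in deficient replicates 1 to 3, still without overlap. Cyp26b1 had 22.3, 21.9 and 33.9 in the controls and 14.5, 19.0 and 16.5 in the deficient libraries, without overlap as well. The values of Crabp2 (30.5, 41.7 and 29.1 against 31.7, 26.9 and 23.1) and Rarb (12.9, 12.2 and 14.1 against 12.2, 10.7 and 6.18) overlapped. The summed markers were lower in the deficient libraries, so a gene of unchanged CPM rises on this measure by construction. The share of all tested genes without overlap on it, in either direction, was not taken. The scaling to embryonic markers called 55.9% of all tested genes higher. In 3 genes every deficient library lay above every control. Rara had 63.2, 58.1 and 65.8 in the controls and 96.1, 120 and 116 in the deficient libraries, Aldh1a2 had 9.02, 8.42 and 11.8 against 13.1, 24.1 and 21.8, and Aldh1a1, with its few counts, had 1.72, 1.68 and 0.47 against 3.17, 1.85 and 2.88. Rarg (56.3, 45.5 and 66.8 against 58.0, 89.0 and 91.4) and Aldh1a3 (2.15, 2.11 and 1.88 against 0.907, 1.85 and 2.06) overlapped.

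**Figure D4:**
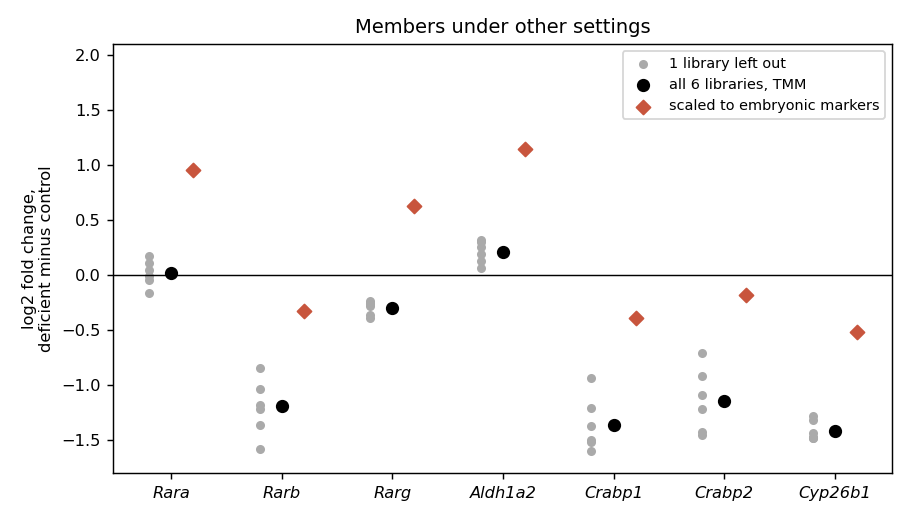
Log2 fold change of the 7 tested genes with all 6 libraries and TMM (black), with each library left out in turn (grey) and with libraries scaled to embryonic markers (red diamonds). Crabp1, Crabp2, Cyp26b1 and Rarb lie below 0 in all of these fits; Rara changes side with the library left out, and Rarg lies above 0 with the scaling only.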

How the data were processed

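RNAseq was read for GFP+ cells, sorted as NCCs, of 3 control and 3 BAF155/170-deficient embryos. The authors trimmed adapters (cutadapt 1.18, with FastQC 0.11.7, per the submitters' processing notes), aligned paired-end reads to GRCm38 with STAR and assigned them with featureCounts. The deposited values are raw counts per gene, not normalized. Annotation release, strand setting and treatment of reads with several hits are not given in the sources used here. Identifiers were joined to GENCODE M21 without version suffix (46488 of 46983 matched, the rest holding at most 0.0706% of a library's counts).

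Counts were filtered by filterByExpr (minimum count 10, minimum total 15), TMM-normalized and fitted in R 4.3.3 with edgeR 4.0.16, robust quasi-likelihood, condition as the only term, over all 13961 tested genes. The study used limma, with the same thresholds, and reported more genes in each direction than were called here. With all 6 libraries, limma-voom here called 836 genes, 829 lower and 7 higher, and the main fit 689, 681 lower and 8 higher. The cause of that gap was not tested. In simulated counts of 14001 genes, 200 of them shifted by 2 on the log2 scale, the fit recovered 94.0% with 14 false calls. The simulation gave every gene the common dispersion and shifted genes of at least 2 CPM, equally up and down. The called genes of the 9 changed by less than that shift, so the recovery does not describe them. The common biological coefficient of variation was 12.8%. Alternatives were DESeq2 1.42.0, limma-voom 3.58.1 with and without sample weights, library totals, scaling to embryonic markers, other filters and thresholds, a length correction, a replicate block and each library left out. Exact permutation tests used scipy 1.17.1. Promoters are RefSeq's, on GRCm38.p6. The genes named are the 9 pathway genes, Smarcc1, Smarcc2, in each pathway list every called gene, the most abundant per kilobase and the one with the largest fold change, and the 3 nearest profiles of each called gene. One gene that this rule names is not reported here. Top2b and Gm48162, Cyp26a1, Cyp26c1, Rxra, Crebbp and Lrat were added after their values were seen, as were the cell type markers named singly. The 9 genes and all lists were chosen with earlier results of these data known.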

Additional observations from a re-analysis of the deposited data

How the results depend on the processing

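Over all tested genes, 689 were called, against 1278 by limma-voom with sample weights, 7855 with scaling to embryonic markers (51 lower, 7804 higher), 94 at an adjusted p of at most 0.05, 1665 by adjusted p alone, and 0 to 1245 with 1 library left out, the 0 being without control replicate 1 (2547 at an unadjusted p under 0.05). With all 6 libraries DESeq2 called 883. Among the 7 pathway genes tested, 3 were called, against 1 at an adjusted p of at most 0.05 and 0 to 4 with 1 library left out. With scaling to embryonic markers the count was 2, Rara and Aldh1a2, both called higher and neither called in the main fit. Of the other pathway genes, 3 were called, against 6 by DESeq2, 5 by limma-voom, 6 with sample weights, 16 with the embryonic scaling (all higher), 6 without a filter, 0 at an adjusted p of at most 0.05, 8 by adjusted p alone and 0 to 9 with 1 library left out.

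With the embryonic scaling the log2 fold changes were 0.95 for Rara, 1.15 for Aldh1a2, −0.32 for Rarb, −0.39 for Crabp1 and −0.52 for Cyp26b1, and those of Rarg (0.62), Rxrb (0.65), Nrip1 (0.30), Smarcc1 (0.22) and Smarcc2 (0.78) turned positive. With a filter at a mean of 2 CPM Rara was at −0.013 and Rarb, no longer called, at −1.23. Crabp2 was called by DESeq2 (−1.13), with sample weights (−1.08), library totals (−1.06) and no filter (−1.09). With 1 library left out, log2 fold changes ran from −0.16 to 0.17 for Rara, −1.59 to −0.85 for Rarb, −1.60 to −0.94 for Crabp1, −1.46 to −0.71 for Crabp2 and −1.48 to −1.28 for Cyp26b1. Per gene in place of per kilobase, Crabp1 was 0.886 times Rara in the controls. The cause of these changes was not tested, apart from the scaling, which moves all genes by construction. Rarb had 15 to 30 counts a library, and Aldh1a1 and Aldh1a3, with at most 7, were not tested.

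The sample titles give both groups the replicate numbers 1 to 3, which were used here. The deviations of same-numbered libraries from their group means correlated at 0.028, −0.034 and 0.293 across genes, and only the third pair correlated best with its own number, so the numbers were not taken to pair the libraries. The count columns and sample descriptions number deficient replicates 1 to 3 as 2 to 4. By those numbers control replicate 2 goes with deficient replicate 1 (0.261) and control replicate 3 with deficient replicate 2 (0.00042), and no block was fitted on them. With the replicate number as a block, 1164 genes were called, 7 of the other pathway genes and 4 of the 7 tested here, Crabp2 (−1.10) being the addition.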
